A study of Ovis aries with 15 samples.

Results

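The effect of pelleting a high-grain diet on the ruminal epithelium was examined in 10 of the 15 RNA-seq libraries of this series, the 5 labelled HP and the 5 labelled HG. HP was read as the pelleted high-grain diet, HG as the non-pelleted high-grain diet and CON as the control, from the series title, since the labels carry the letters alone. All libraries came from male Hu lambs, a Chinese sheep breed, at 6 months of age, and were made from Trizol-extracted total RNA of frozen ruminal epithelium. The 5 CON libraries entered no fit and are given only as a level. What the diets were made of and how long they were fed is not given in the sources used here. The labels do not say that each library is its own animal, so p-values measure the spread between libraries.

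The ruminal epithelium is a stratified, keratinised lining that takes up the short-chain fatty acids made by microbial fermentation. It turns part of the absorbed butyrate into ketone bodies, moves protons and bicarbonate, and keeps lumen microbes away from the blood. Grain is fermented faster than forage and lowers ruminal pH, and the epithelium of animals on grain-rich feed is known for altered growth, differentiation and barrier function. Pelleting grinds and compresses the feed into particles of uniform make-up, which can change how it is eaten and fermented.

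The samples were epithelial by their markers. All 16 stratified epithelium markers looked for were found and tested, and their summed level was 11028 to 15319 FPKM in HP and 11966 to 14562 FPKM in HG. FPKM, a fragment count divided by transcript length and library size, keeps no record of depth, so the depth of each library is unknown and no counting interval can be given. KRT5, the keratin of basal cells, averaged 1248 ± 468 FPKM in HP and 1512 ± 398 FPKM in HG (SD, n = 5 each, as for all means given here). Smooth muscle markers were uneven between libraries. The summed level of 14 smooth muscle markers was 388, 255, 235, 304 and 4008 FPKM in libraries HP1 to HP5, against 839.9, 6769.8, 4268, 275 and 284 FPKM in HG1 to HG5. It was high in HP5, HG2 and HG3, somewhat raised in HG1 and low in the other 6. DES, the muscle intermediate filament desmin, had 6.63, 2.43, 2.41, 4.55 and 1019 FPKM in libraries HP1 to HP5, against 154, 1579, 1258, 2.99 and 2.59 FPKM in HG1 to HG5. All 14 markers had a negative fold change (HP over HG), with a list median of -1.11 on the log2 scale, and none had an unadjusted p under 0.05. In bulk tissue, fewer cells of a type and less RNA per cell cannot be told apart. HP1 also stood apart from the rest: the SD over genes of its deviation from the group mean was 0.441 log2 units, against 0.326 to 0.360 in HP2 to HP5 and 0.325 to 0.355 in HG. The adipocyte marker sum was 1318 FPKM in HP1 and 55.2 to 492.9 FPKM in HP2 to HP5, against 64.7 to 631.9 FPKM in HG. Nearly all of it was FABP4, a fatty acid carrier found in fat and other cells, while 2 of the 6 adipocyte markers found stayed under 1 FPKM in all 10 libraries. Sums for fibroblasts (1335 to 2380 FPKM in HP and 1402 to 2408 in HG), endothelium (220.1 to 411.3 and 282.4 to 371.8), T and NK cells (20.1 to 66.1 and 21.7 to 52.8) and myeloid cells (109.3 to 265.1 and 111.9 to 330.5) overlapped between the diets.

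**Figure D1:**
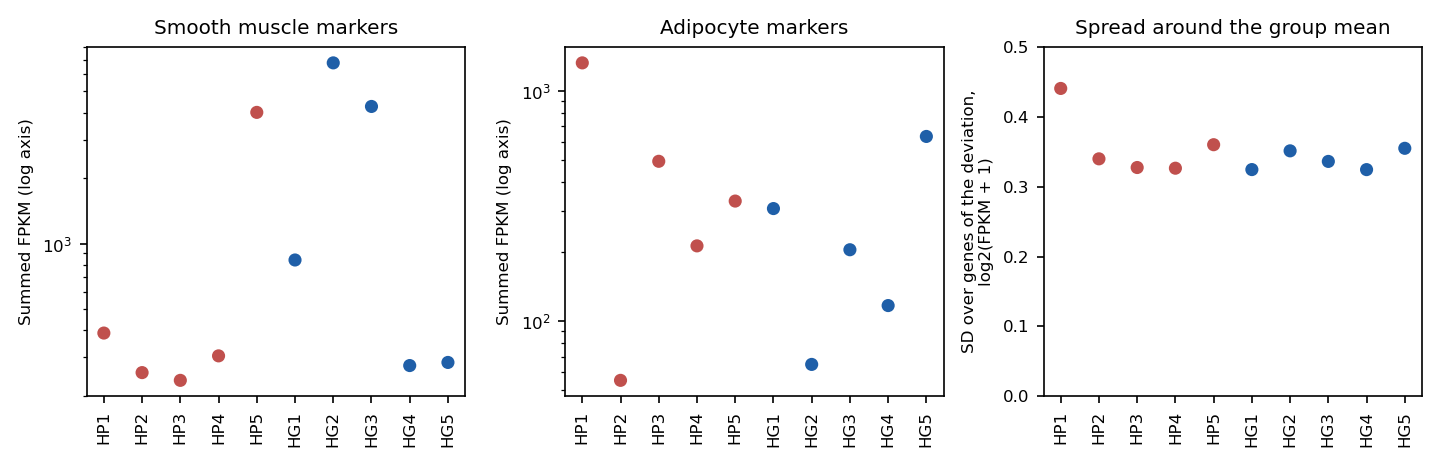
Levels that set single libraries apart, with HP libraries (red) left of HG libraries (blue). The left and middle panels give the summed FPKM of smooth muscle and adipocyte markers on log axes, and the right panel the SD over genes of each library's deviation from its group mean. Smooth muscle markers reach 4008 FPKM in HP5, 6770 in HG2 and 4268 in HG3, and HP1 has the widest spread, 0.441.

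No gene differed between the pelleted and the non-pelleted diet at the threshold used. Of 12720 genes tested by limma, 0 (0.0%) had an adjusted p under 0.05, and the smallest adjusted p was 0.476. At an unadjusted p under 0.05 there were 380 genes (2.99%), of which 198 (1.56%) were higher and 182 (1.43%) lower in HP, where 636 would be expected if no gene differed. Under median-ratio scaling the split was 168 higher and 235 lower. Without HP1 this count was 1089 (8.56% of genes tested), 615 higher and 474 lower, again with 0 genes at an adjusted p under 0.05. With the smooth muscle score as a covariate it was 330, and without the 3 libraries high in muscle markers, HP5, HG2 and HG3, it was 340, also with 0 at an adjusted p under 0.05. Of the 330 genes with the covariate, 223 were among the 380, so most were the same genes. Of the 340 without the 3 libraries, 134 were among the 380, so most were other genes. The 5 HP libraries lay wholly above the 5 HG libraries for 33 genes (0.259%) and wholly below them for 23 (0.181%). The median fold change of all genes was 0.01 log2 units, 51.2% of genes had one above 0, and the middle of the distribution was narrow, with the 5th percentile at -0.34 and the 95th at 0.30. Libraries of unlike diet resembled each other about as much as libraries of the same diet. The median correlation across genes was 0.951 for pairs within HP, 0.957 for pairs within HG and 0.956 for pairs of an HP with an HG library.

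The fit also gives limits on what could have been missed. The 95% interval of the fold change excluded a 2-fold difference in either direction for 11775 of 12720 genes (92.6%) and a 1.5-fold difference for 8669 (68.2%). For the other 945 genes a 2-fold difference lay inside the interval. With a pseudocount of 0.1 in place of 1, the interval excluded a 2-fold difference for fewer genes, 10860 of the 12720. Among the 8123 genes averaging 5 FPKM or more in the higher of the diets, a 2-fold difference was excluded for 7488 (92.2%). Only 90 genes differed by at least 1 log2 unit, 43 higher and 47 lower, and the median half-width of the interval was 0.36. These intervals hold gene by gene and are not adjusted for the number of genes.

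**Figure D2:**
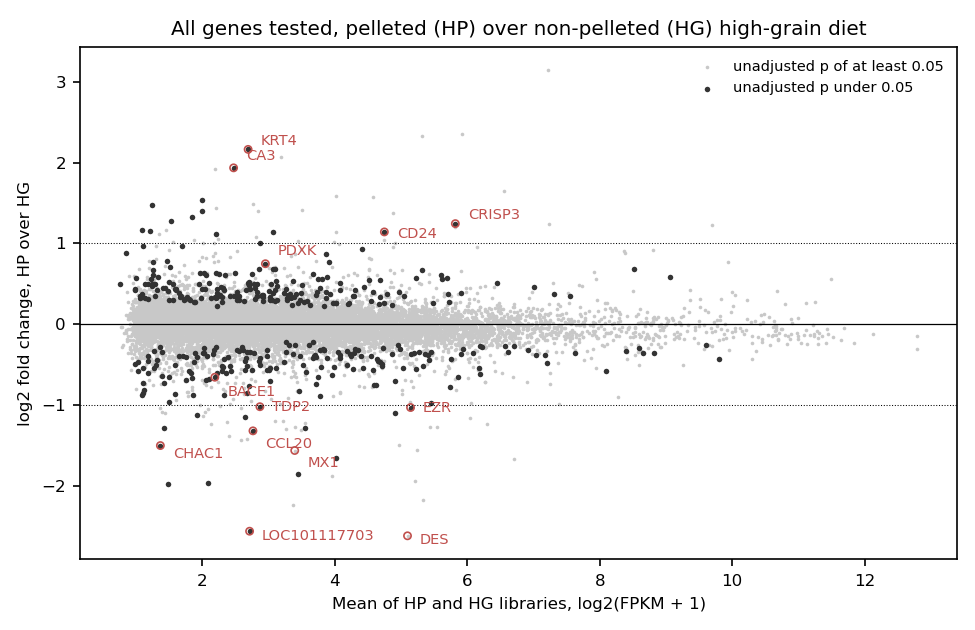
Each point is 1 of the 12720 genes tested, with its mean over the 10 libraries on the horizontal axis, as log2(FPKM + 1), and its log2 fold change, HP over HG, on the vertical axis. Dark points are the 380 genes with an unadjusted p under 0.05, red rings mark named genes, and dotted lines mark a 2-fold difference. No gene passed adjustment for the number of genes, and points spread about evenly above and below 0.

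CA3, PDXK and BACE1 led the comparison. These 3 genes shared the smallest adjusted p, 0.476 in limma; for every other gene named in the account of this comparison it was 0.999. CA3 (gene13605), carbonic anhydrase 3, is a cytosolic enzyme of low activity best known from skeletal muscle and fat. It had 6.87, 23.3, 9.82, 5.49 and 10.2 FPKM in libraries HP1 to HP5, against 2.08, 1.12, 2.47, 1.297 and 2.55 FPKM in HG1 to HG5. Every HP library lay above every HG library, the group means were 11.1 ± 7.09 FPKM in HP and 1.90 ± 0.660 FPKM in HG, and CON averaged 3.60 ± 2.95 FPKM. The fold change was 1.94 ± 0.31 (SE), with a 95% interval of 1.26 to 2.61. The 5 skeletal muscle markers found summed to 14.5 to 40.8 FPKM in HP and 19.8 to 65.5 FPKM in HG. The adipocyte sum, nearly all FABP4, was 1318, 55.2, 493, 212 and 331 FPKM in libraries HP1 to HP5. In HG1 to HG5 it was 307, 64.7, 204, 117 and 632 FPKM. HP2 thus had the highest CA3 and the lowest adipocyte sum of the 10 libraries. The part of skeletal muscle and fat in the CA3 values was not tested. PDXK (gene2672), the kinase that makes the active form of vitamin B6, had 8.66, 7.995, 10.3, 10.3 and 8.15 FPKM in libraries HP1 to HP5, against 5.33, 3.68, 5.68, 5.22 and 5.17 FPKM in HG1 to HG5. The groups did not overlap, with a fold change of 0.75 ± 0.13 (SE) and an interval of 0.46 to 1.03, and CON averaged 5.15 ± 2.07 FPKM.

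The 10 named genes higher in HP were chosen by small p, so whether their groups overlap is a description only. RHBDL2, a rhomboid protease that cuts proteins inside the membrane, had 20.8, 24.0, 25.7, 25.3 and 26.7 FPKM in libraries HP1 to HP5, against 16.1, 16.6, 18.9, 20.1 and 15.6 FPKM in HG1 to HG5. The fold change was 0.47 ± 0.11 (SE), while CON averaged 28.5 ± 8.05 FPKM, above both. WDR37, a WD-repeat protein, averaged 8.77 ± 1.27 FPKM in HP and 5.92 ± 0.668 FPKM in HG. MATR3, an RNA-binding protein of the nuclear matrix, had 64.5, 68.2, 69.9, 71.2 and 64.1 FPKM in libraries HP1 to HP5, against 46.7, 53.8, 50.4, 48.3 and 59.9 FPKM in HG1 to HG5. The groups did not overlap, with a fold change of 0.38 ± 0.10 (SE) and an interval of 0.16 to 0.61. DYNAP, a dynactin-associated membrane protein, had 28.4, 13.6, 13.8, 14.4 and 29.8 FPKM in libraries HP1 to HP5, against 8.56, 10.8, 11.98, 10.7 and 7.57 FPKM in HG1 to HG5. HP1 and HP5 were about 2-fold above the other 3 HP libraries, which still lay above all HG libraries. SMIM15, a small membrane protein, averaged 14.3 ± 2.09 FPKM in HP and 10.6 ± 0.869 FPKM in HG without overlap. In PASK, CHTOP and CD24 the groups overlapped. PASK, a nutrient-sensing kinase, averaged 10.1 ± 2.42 FPKM in HP and 5.96 ± 1.81 FPKM in HG, and the fold change of 0.68 ± 0.20 (SE) came with HP2 below HG2. CHTOP, which takes part in messenger RNA export, averaged 60.0 ± 9.56 FPKM in HP and 39.6 ± 9.65 FPKM in HG. CD24, a sugar-rich cell surface protein of epithelial and immune cells, had 27.8, 55.9, 37.2, 34.7 and 44.5 FPKM in libraries HP1 to HP5, against 28.8, 32.1, 7.47, 16.1 and 12.6 FPKM in HG1 to HG5. Here HP1 lay below HG1 and HG2, and the fold change was 1.14 ± 0.35 (SE).

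BACE1 (gene19114), the protease known as beta-secretase, was the leading gene lower in HP. It was added to the named genes after its values were seen, since its mean was under 5 FPKM in both diets. BACE1 had 2.82, 2.30, 2.77, 3.08 and 2.26 FPKM in libraries HP1 to HP5, against 4.22, 4.67, 5.24, 5.15 and 4.41 FPKM in HG1 to HG5. The groups did not overlap, the fold change was -0.66 ± 0.12 (SE) with an interval of -0.91 to -0.40, and CON averaged 2.36 ± 1.33 FPKM. The 10 genes lower in HP with the smallest p and at least 5 FPKM in HG were chosen in the same way. CAPN2, the catalytic subunit of a calcium-activated protease, had 20.9, 25.3, 19.99, 17.4 and 22.3 FPKM in libraries HP1 to HP5, against 27.5, 30.0, 35.6, 26.8 and 31.0 FPKM in HG1 to HG5. Its fold change was -0.50 ± 0.12 (SE). ITPRIP, a protein that binds the inositol trisphosphate receptor, had 7.87, 8.75, 8.05, 7.87 and 7.93 FPKM in libraries HP1 to HP5, against 12.2, 9.88, 9.73, 11.5 and 10.6 FPKM in HG1 to HG5. The 5 HP libraries were nearly level and CON averaged 5.41 ± 1.25 FPKM, below both diets. CUX1, a homeobox transcription factor, averaged 35.4 ± 3.36 FPKM in HP and 46.1 ± 3.27 FPKM in HG, and FOXP4, a forkhead factor, 23.0 ± 4.09 FPKM in HP and 38.7 ± 11.4 FPKM in HG. The CUX1 groups did not overlap, and for FOXP4 HP1 lay above HG1. PAMR1, a secreted protein with a peptidase-like domain, averaged 5.78 ± 1.02 FPKM in HP and 8.81 ± 1.33 FPKM in HG, and NUDT8, a mitochondrial nudix hydrolase, 4.01 ± 1.78 FPKM in HP and 7.61 ± 1.33 FPKM in HG, both without overlap. KANSL3, a subunit of a histone acetyltransferase complex, averaged 5.66 ± 1.63 FPKM in HP and 8.61 ± 0.660 FPKM in HG, also without overlap.

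TDP2, the enzyme that frees DNA ends from trapped topoisomerase II, shows how much 1 library can weigh. TDP2 had 3.53, 4.62, 4.14, 4.601 and 3.86 FPKM in libraries HP1 to HP5, against 10.6, 13.6, 3.78, 12.1 and 10.5 FPKM in HG1 to HG5. HG3 sat within the range of the HP libraries, and CON averaged 5.17 ± 1.33 FPKM. The fold change was -1.02 ± 0.26 (SE), and without HG3 the limma adjusted p was 0.00799, which made TDP2 the single gene past the threshold in that fit. EDF1, a transcriptional coactivator, averaged 40.6 ± 9.78 FPKM in HP and 69.4 ± 11.9 FPKM in HG, with only HP1 above the lowest HG library. FOLR3, of the folate receptor family, averaged 2.93 ± 1.55 FPKM in HP and 5.86 ± 1.102 FPKM in HG. Leaving out HP4 likewise gave a single gene past the threshold, an unnamed transcript with 0.0525, 0, 0.00641, 4.11 and 0.0525 FPKM in libraries HP1 to HP5, against 5.59, 6.38, 4.92, 5.04 and 2.08 FPKM in HG1 to HG5. Its HP4 value was close to those of HG, its adjusted p in that fit was 0.00562, and CON averaged 0.0190 ± 0.0127 FPKM.

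**Figure D3:**
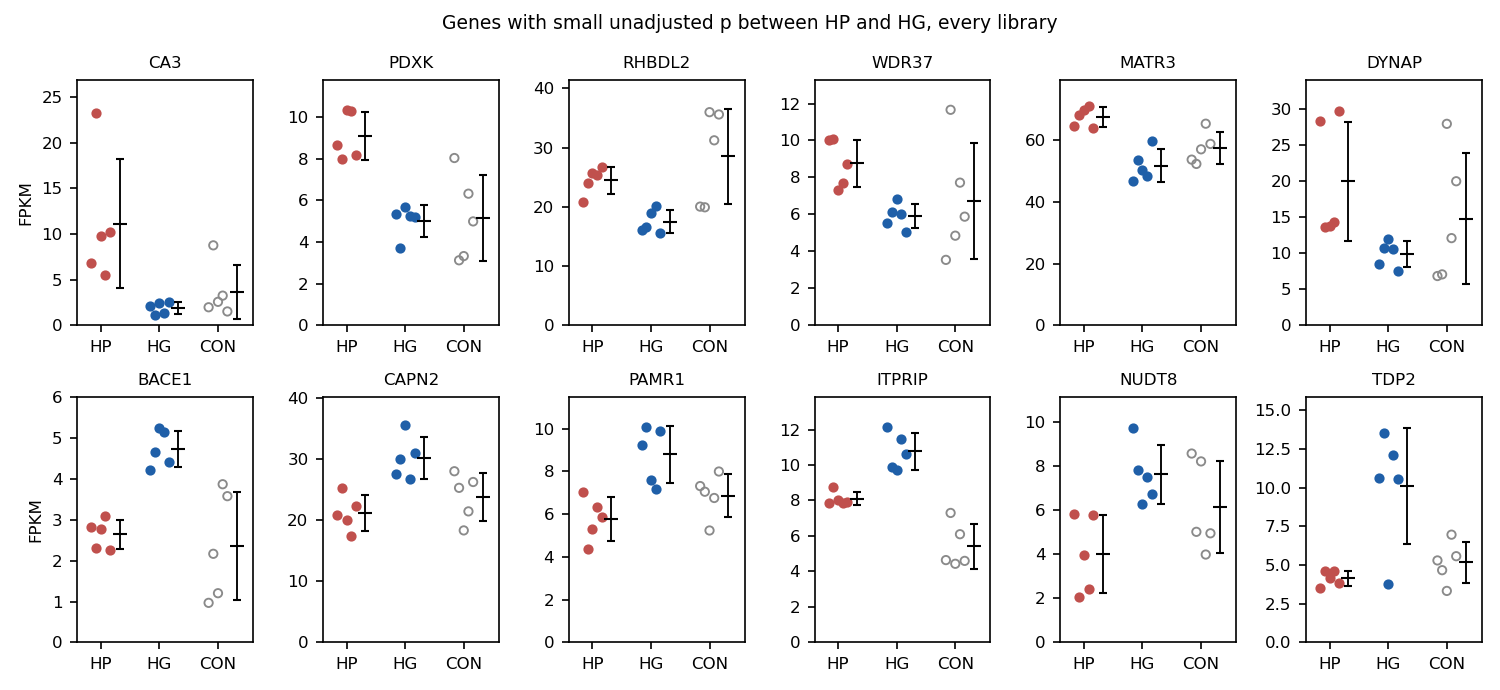
FPKM of 12 genes with small unadjusted p in every library, with HP (red) left of HG (blue) and CON (open circles) for the level; bars are mean and SD of 5 libraries. The upper row holds genes with a higher mean in HP and the lower row genes with a lower one. The groups of CA3 do not overlap, from 5.49 FPKM upward in HP and up to 2.55 in HG, while TDP2 has 1 HG library, at 3.78, among the HP values.

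Several genes had larger mean differences with wide spread. KRT4, a keratin of the suprabasal layers of moist stratified epithelia, had 31.5, 13.6, 4.51, 2.65 and 49.3 FPKM in libraries HP1 to HP5, against 1.47, 1.32, 0.912, 2.99 and 5.07 FPKM in HG1 to HG5. HP3 and HP4 lay below HG5, so the groups overlapped in spite of a fold change of 2.16 ± 0.71 (SE) with an interval of 0.57 to 3.76. KRT13, the usual partner of KRT4, had 2122, 1367, 746, 786 and 2050.2 FPKM in libraries HP1 to HP5, against 957, 437, 1136, 462 and 1091 FPKM in HG1 to HG5. The fold change of KRT13 was 0.77 ± 0.39 (SE) and its interval, -0.08 to 1.62, included 0. KRT3, a type II keratin known from the cornea, averaged 6.31 ± 5.97 FPKM in HP and 1.496 ± 1.27 FPKM in HG. HP1 and HP5 had 15.7 and 8.75 FPKM, while HP2, HP3 and HP4 lay within the HG range of 0.127 to 3.46 FPKM. In the alternatives the fold change of KRT3, 1.33, was as low as 0.18, and that of KRT4 as low as 0.76. Type II keratins are similar in sequence, so reads may have been split among them. The secreted protein CRISP3 had 57.3, 95.8, 102, 63.0 and 133 FPKM in libraries HP1 to HP5, against 30.5, 122, 31.8, 21.8 and 22.0 FPKM in HG1 to HG5. Only HG2 among the HG libraries reached the HP range, and the fold change was 1.24 ± 0.44 (SE). HAL, the enzyme that turns histidine into urocanate in the upper epidermis, averaged 3.60 ± 1.13 FPKM in HP and 1.17 ± 1.36 FPKM in HG. HAP1, a trafficking protein that binds huntingtin, was even in HP at 5.52 ± 0.928 FPKM and split in HG, with 0.295, 0.305 and 0.132 FPKM in HG1, HG3 and HG5 and 6.30 and 5.25 FPKM in HG2 and HG4.

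On the lower side, EZR, the ezrin that ties microvilli to actin, had 21.9, 22.9, 22.0, 23.0 and 29.6 FPKM in libraries HP1 to HP5, against 74.6, 62.7, 86.0, 27.1 and 27.0 FPKM in HG1 to HG5. HG4 and HG5 were near the HP level and the other 3 HG libraries well above it, with a fold change of -1.03 ± 0.31 (SE). HG1, HG2 and HG3 also had the highest smooth muscle marker sums of HG, at 839.9, 6769.8 and 4268 FPKM. In CON, EZR was high in CON1 and CON5, at 71.8 and 91.1 FPKM, where that sum was 2244 and 1019 FPKM. HP5, with a sum of 4008 FPKM, had the highest EZR of HP but stayed near HG4 and HG5. With the smooth muscle score as a covariate in limma EZR kept an unadjusted p under 0.05. Its fold change lay between -1.24 and -0.72 in the 22 alternatives. The part of muscle tissue in the EZR values was not tested beyond that. TMEM208, a membrane protein of the endoplasmic reticulum, averaged 36.2 ± 23.9 FPKM in HP and 61.0 ± 12.01 FPKM in HG. LOC101117703 (gene21848), a gene known by its number only, had 1.23, 1.19, 0.402, 2.64 and 4.77 FPKM in libraries HP1 to HP5, against 9.96, 73.1, 9.01, 14.5 and 7.19 FPKM in HG1 to HG5. All HP libraries lay below all HG libraries, with a fold change of -2.56 ± 0.61 (SE) that included 1 very high library, HG2. The mirror case was LOC101115564, at 2.39 ± 1.41 FPKM in HP and 0.479 ± 0.449 FPKM in HG without overlap. Both were picked after their values were seen.

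Described by function, the gene lists stayed near the background. Of 805 genes tested in 30 lists, 30 (3.73%) had an unadjusted p under 0.05, against 2.99% of all genes, and 0 passed adjustment. In 14 lists no member had an unadjusted p under 0.05, and in 7 the median fold change was at least 0.1 log2 units from 0, against a median of 0.01 over all genes. The share of members above 0 ran from 0.0% for interferon-stimulated genes to 85.2% for cholesterol synthesis, against 51.2% of all genes. Counts of members at an unadjusted p under 0.05 stand beside 1.56% of all genes higher and 1.43% lower in HP. In all, 8 lists kept the sign of their median under all 22 alternatives, and these are pointed out below.

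**Figure D4:**
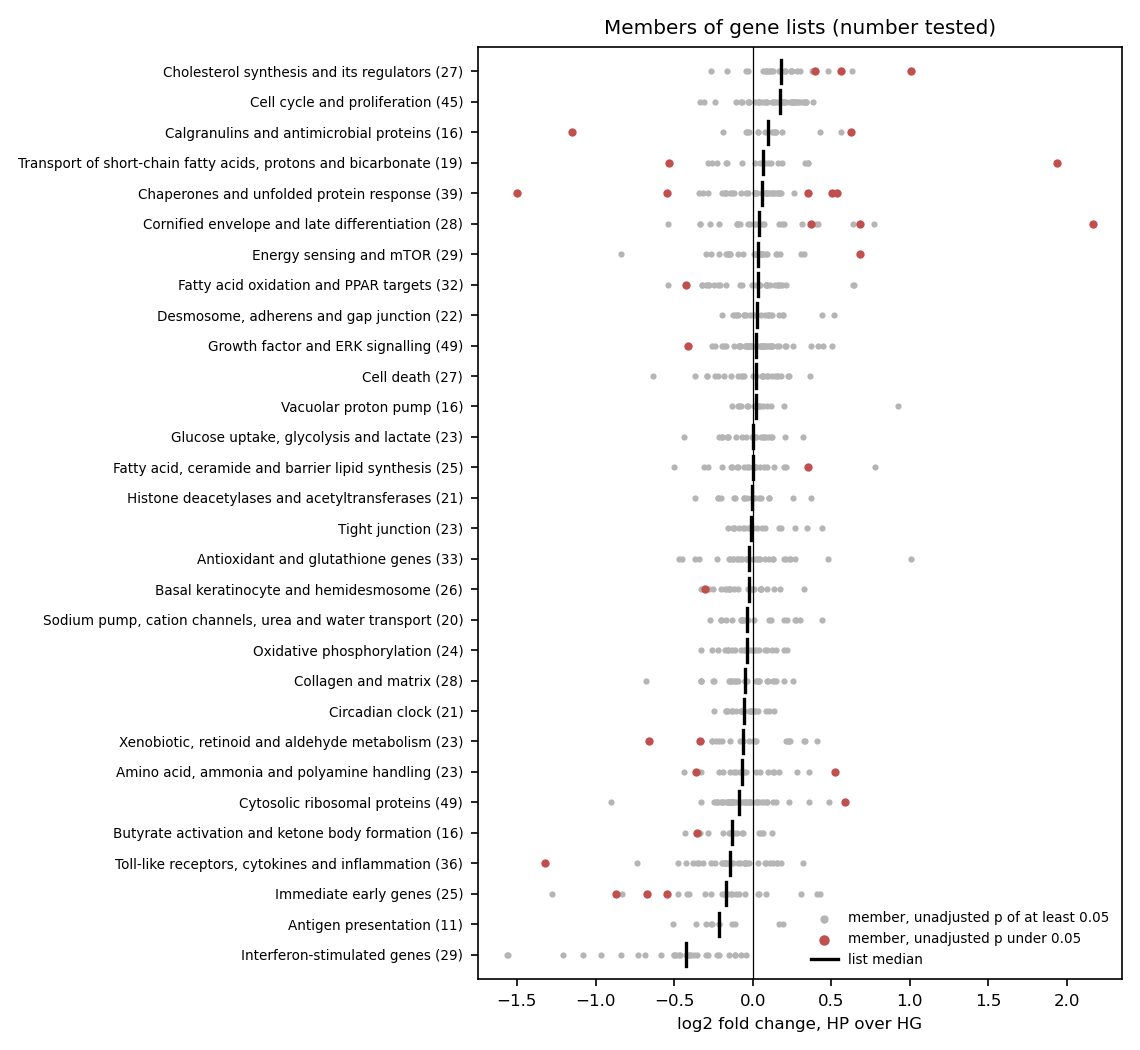
Log2 fold changes, HP over HG, of the members of 30 function lists, with the number of members tested in brackets, sorted by the list median (black bar). Red points are members with an unadjusted p under 0.05. Medians run from -0.42 for interferon-stimulated genes to 0.18 for cholesterol synthesis, and most lists have medians within 0.1 of 0.

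Genes for uptake of short-chain fatty acids and for proton and bicarbonate traffic gave 1 gene at a low unadjusted p in each direction. Of 19 tested, 12 had fold changes above 0, 1 (CA3) had an unadjusted p under 0.05 as higher and 1 (CA4) as lower, and the list median was 0.06, positive in all 22 alternatives but as low as 0.00 without HP2. CA4, a carbonic anhydrase held on the outer membrane, had 3.87, 5.49, 2.76, 2.23 and 2.18 FPKM in libraries HP1 to HP5, against 5.39, 5.12, 4.39, 4.83 and 5.31 FPKM in HG1 to HG5. HP2 lay above every HG library and the other 4 HP libraries below them all, so the means of CA3 and CA4 differed in opposite directions. SLC16A1, the monocarboxylate carrier MCT1, averaged 274 ± 76.2 FPKM in HP and 256 ± 41.8 FPKM in HG, a fold change of 0.06 ± 0.20 (SE) that was negative in 4 of 22 alternatives. SLC9A3, an apical sodium/proton exchanger, had 27.0, 55.5, 100.2, 70.3 and 74.6 FPKM in libraries HP1 to HP5, against 39.9, 54.3, 55.0, 62.0 and 31.2 FPKM in HG1 to HG5. HP1 was the lowest library and HP3 the highest, the interval of the fold change ran from -0.33 to 1.03, and CON averaged 21.2 ± 14.9 FPKM. SLC26A3, a chloride/bicarbonate exchanger, averaged 60.2 ± 24.9 FPKM in HP and 46.9 ± 23.3 FPKM in HG. The sodium pump, cation channel, urea and water list had 9 of 20 members with a positive fold change and 0 at an unadjusted p under 0.05. TRPV3, a cation channel of keratinocytes, came closest to the threshold at 7.12 ± 2.15 FPKM in HP and 5.10 ± 2.44 FPKM in HG. Of 16 subunits of the vacuolar proton pump tested, 0 had an unadjusted p under 0.05, the median was 0.02, and for 15 the interval excluded a 2-fold difference.

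Genes of ketone body formation from butyrate mostly had negative fold changes. Only 4 of 16 members (25.0%) had fold changes above 0, against 51.2% of all genes. With an unadjusted p under 0.05, 0 were higher and 1 lower, against 1.56% and 1.43% of all genes. The list median was -0.13, between -0.30 and -0.06 in the alternatives. HADH, which oxidises hydroxyacyl-CoA, had 300.3, 356, 321, 325 and 519.5 FPKM in libraries HP1 to HP5, against 496, 399, 475, 439 and 477 FPKM in HG1 to HG5. HP1 to HP4 lay below every HG library and HP5 above them all. BDH1, which makes beta-hydroxybutyrate, had 358, 286, 159.6, 268 and 499.6 FPKM in libraries HP1 to HP5, against 491, 292, 381, 342 and 519 FPKM in HG1 to HG5. The median deviation of the members from the mean of the 10 libraries was highest in HP5 and HG5, at 0.43 and 0.35 log2 units, and lowest in HP4, at -0.20. ACADS, the dehydrogenase for butyryl-CoA, averaged 362 ± 148 FPKM in HP and 434 ± 58.2 FPKM in HG. Fatty acid oxidation and PPAR targets had a median of 0.03 with 18 of 32 members positive; EHHADH, a peroxisomal enzyme, was the 1 member at an unadjusted p under 0.05, at 5.44 ± 1.24 FPKM in HP and 7.54 ± 1.06 FPKM in HG.

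Cholesterol synthesis genes mostly had positive fold changes. Of 27 members, 23 (85.2%) had fold changes above 0, against 51.2% of all genes. With an unadjusted p under 0.05, 3 were higher and 0 lower, against 1.56% and 1.43% of all genes. The median of 0.18 lay between 0.11 and 0.29 in the alternatives. MSMO1, a sterol demethylase, had 64.5, 59.6, 67.7, 65.2 and 40.5 FPKM in libraries HP1 to HP5, against 29.0, 32.7, 34.8, 52.6 and 53.9 FPKM in HG1 to HG5. HP5 lay within the HG range and the other 4 HP libraries above it, and CON averaged 74.7 ± 15.1 FPKM. FDFT1, squalene synthase, averaged 26.5 ± 2.80 FPKM in HP and 20.1 ± 4.15 FPKM in HG. SC5D, a late desaturase of the pathway, had 8.22, 9.12, 10.96, 9.65 and 8.93 FPKM in libraries HP1 to HP5, against 6.74, 7.27, 1.39, 1.58 and 8.15 FPKM in HG1 to HG5. Its groups did not overlap, and the fold change of 1.01 ± 0.38 (SE) included 2 low libraries, HG3 and HG4. HMGCS1, IDI1, FDPS and SQLE, upstream enzymes of the same pathway, had positive fold changes of 0.38, 0.63, 0.48 and 0.30, each with an interval that included 0. SREBF2, the transcription factor that drives the pathway, averaged 82.2 ± 30.3 FPKM in HP and 95.1 ± 12.6 FPKM in HG, with only HP3 above the HG libraries. The list score per library, the median deviation of the members from the mean of the 10 libraries, was highest in HP3 and HG5, at 0.31 and 0.33, and lowest in HG3 and HG1, at -0.28 and -0.23. Fatty acid, ceramide and barrier lipid synthesis had a median of 0.00 over 25 genes, with ELOVL6, a fatty acid elongase, as the 1 member at an unadjusted p under 0.05 (7.55 ± 1.59 FPKM in HP and 5.65 ± 0.791 FPKM in HG).

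The differentiation programme showed no common direction. In the cornified envelope and late differentiation list, 17 of 28 members (60.7%) had fold changes above 0, against 51.2% of all genes, and the median was 0.04. With an unadjusted p under 0.05, 3 (KRT4, CSTA and SPINK5) were higher and 0 lower, against 1.56% and 1.43% of all genes. CSTA, a protease inhibitor of the cornified envelope, had 10.5, 8.997, 8.18, 10.3 and 4.59 FPKM in libraries HP1 to HP5, against 3.09, 6.43, 5.15, 7.26 and 3.03 FPKM in HG1 to HG5. SPINK5, which restrains the proteases of shedding, averaged 182 ± 41.9 FPKM in HP and 139 ± 15.4 FPKM in HG. A2ML1, another protease inhibitor of the outer epidermis, was abundant at 1210.3 ± 319.6 FPKM in HP and 894 ± 135 FPKM in HG, with an interval of -0.03 to 0.84. Among 26 basal keratinocyte and hemidesmosome genes, PAX9, a transcription factor of oral and oesophageal epithelium, was the 1 member at an unadjusted p under 0.05, at 54.6 ± 5.37 FPKM in HP and 68.1 ± 11.1 FPKM in HG. LAMB3, a chain of the laminin that anchors basal cells, averaged 23.8 ± 6.00 FPKM in HP and 28.7 ± 4.29 FPKM in HG. None of 22 desmosome, adherens and gap junction genes and none of 23 tight junction genes had an unadjusted p under 0.05, with medians of 0.03 and -0.01. For 20 and 22 of them the interval excluded a 2-fold difference.

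The interferon-stimulated genes had the median farthest from 0 of the 30 function lists, and the HG libraries differed widely among themselves. All 29 members tested had a negative fold change, while 51.2% of all genes had a positive one. None had an unadjusted p under 0.05, against 2.99% of all genes, and the median was -0.42. ISG15, a ubiquitin-like antiviral protein, had 37.9, 24.8, 9.65, 28.9 and 15.2 FPKM in libraries HP1 to HP5, against 2.36, 382, 66.0, 149.6 and 86.9 FPKM in HG1 to HG5. HG1 was the lowest and HG2 the highest of the 10 libraries, and all HP libraries lay above HG1 and below HG2 to HG5. MX1, a GTPase that blocks viruses, had 5.85, 4.13, 8.38, 6.89 and 2.31 FPKM in libraries HP1 to HP5, against 1.84, 72.6, 10.98, 36.7 and 19.5 FPKM in HG1 to HG5. Like ISG15 it was lowest in HG1 and highest in HG2 and HG4. IFIT3 averaged 0.874 ± 0.621 FPKM in HP and 4.66 ± 5.91 FPKM in HG and USP18, which removes ISG15 from proteins, 2.51 ± 0.827 FPKM in HP and 11.4 ± 12.1 FPKM in HG. The list score per library lay between -0.51 and 0.04 log2 units in HP, against -0.75 in HG1, 0.67 in HG4 and 1.41 in HG2. HG3 and HG5, at -0.23 and 0.02, lay within the HP range. The list median was -0.17 without HG2 and -0.64 without HG1, and stayed negative in all 22 alternatives. CON averaged 233 ± 108 FPKM for ISG15. B2M, the light chain of MHC class I, averaged 538 ± 201 FPKM in HP and 879 ± 586 FPKM in HG. Antigen presentation genes had a median of -0.22 with 2 of 11 positive, and 0.04 without HP5, HG2 and HG3. Myeloid and T cell marker sums, given above, were above their group median in HG2 and HG4 and lowest of HG in HG1, at 111.9 and 21.7 FPKM. The B and plasma cell sum was 12.7 to 48.7 FPKM in HP, against 2.23 FPKM in HG1 and 19.5 to 30.9 FPKM in HG2 to HG5. The part of these cells in these values was not tested.

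The other immune lists had medians nearer to 0. In the list of Toll-like receptors, cytokines and inflammation 9 of 36 members (25.0%) had fold changes above 0, against 51.2% of all genes. With an unadjusted p under 0.05, 0 were higher and 1 lower, against 1.56% and 1.43% of all genes. The median was -0.14, between -0.18 and -0.05 in the alternatives. CCL20, the chemokine that draws CCR6-bearing lymphocytes to epithelia, had 1.23, 7.04, 4.24, 9.604 and 0.484 FPKM in libraries HP1 to HP5, against 7.76, 7.79, 7.54, 16.5 and 11.4 FPKM in HG1 to HG5. HP1, HP2, HP3 and HP5 lay below every HG library and HP4 within their range, with a fold change of -1.32 ± 0.51 (SE) and an interval of -2.46 to -0.18. RELB, a subunit of NF-kappaB, averaged 3.14 ± 0.542 FPKM in HP and 4.18 ± 0.973 FPKM in HG. Calgranulins and antimicrobial proteins had a median of 0.10, which was negative in 2 of 22 alternatives and lowest without HG1, at -0.08. MUC15, a membrane mucin, had 4.50, 5.59, 4.76, 5.14 and 4.57 FPKM in libraries HP1 to HP5, against 2.82, 2.87, 4.03, 3.18 and 1.61 FPKM in HG1 to HG5. Its groups did not overlap, and CON averaged 2.87 ± 0.736 FPKM, at the level of HG. PGLYRP2, an amidase that cuts bacterial peptidoglycan, averaged 4.67 ± 5.81 FPKM in HP and 9.13 ± 4.80 FPKM in HG, with 4 HP libraries between 1.34 and 2.96 FPKM and HP3 at 15.01 FPKM. S100A8, a calgranulin subunit, ranged from 527 to 2908 FPKM in HP and from 617 to 2859 FPKM in HG. PI3, the elastase inhibitor elafin, ranged from 36.2 to 859.9 FPKM in HP and from 116 to 373 FPKM in HG. The ranges overlapped in both.

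**Figure D5:**
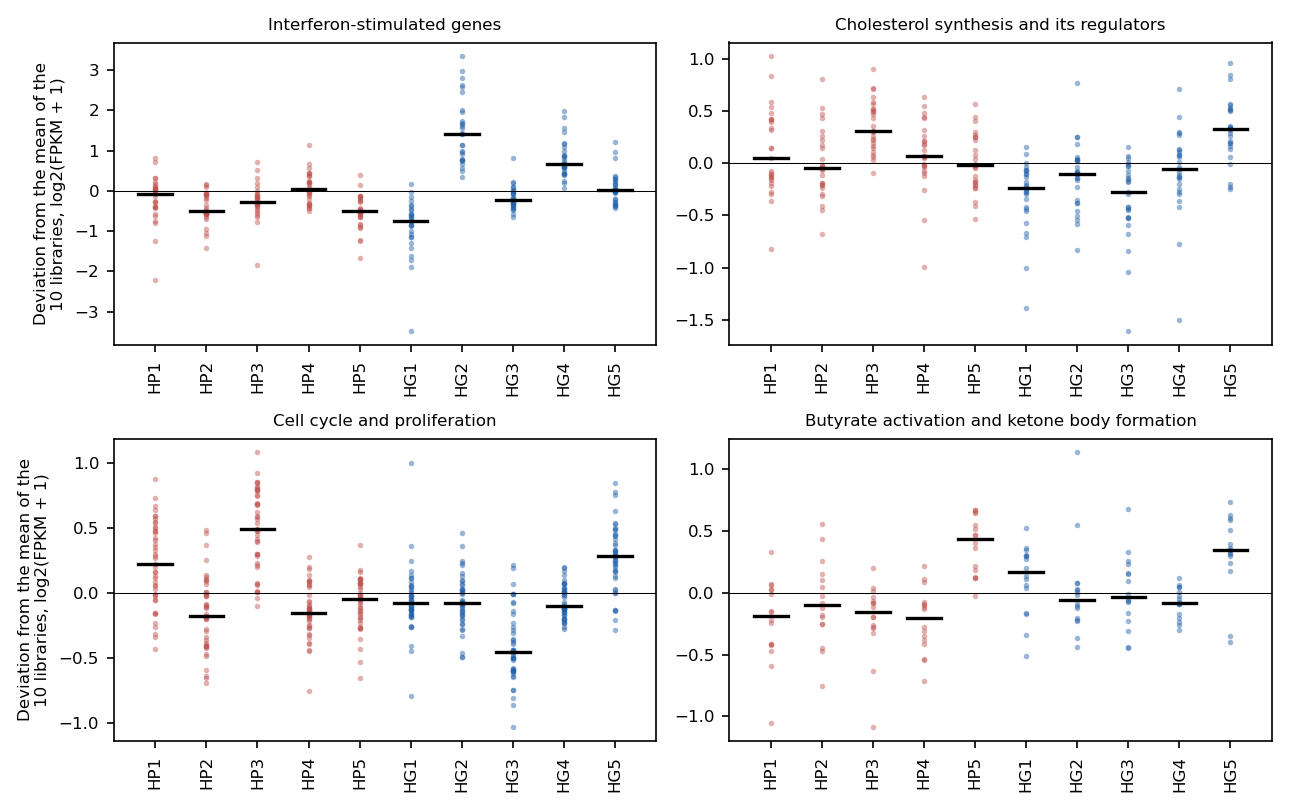
Each point is a list member in 1 library, as its deviation from the mean of the 10 libraries on the log2(FPKM + 1) scale, and black bars are the list medians; HP libraries (red) stand left of HG libraries (blue). Interferon-stimulated genes are highest in HG2, with a median of 1.41, and lowest in HG1. In the other 3 lists shown, cholesterol synthesis, cell cycle and ketone body formation, HP and HG libraries overlap.

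Immediate early genes, which respond within minutes to growth factors and stress, mostly had negative fold changes. Of 25 tested, 6 (24.0%) had fold changes above 0, against 51.2% of all genes. With an unadjusted p under 0.05, 0 were higher and 3 lower, against 1.56% and 1.43% of all genes. The median was -0.17, between -0.25 and -0.08 in the alternatives. FOS, a subunit of AP-1, had 25.2, 12.2, 15.6, 19.7 and 14.2 FPKM in libraries HP1 to HP5, against 33.3, 24.4, 28.5, 17.2 and 24.5 FPKM in HG1 to HG5. FOSL1, a related subunit, averaged 2.61 ± 1.31 FPKM in HP and 4.48 ± 0.868 FPKM in HG, and ATF3, a stress-induced factor, 1.72 ± 0.554 FPKM in HP and 4.59 ± 3.58 FPKM in HG. EGR1, a zinc finger factor, averaged 5.63 ± 1.91 FPKM in HP and 8.78 ± 5.08 FPKM in HG. JUN, the partner of FOS, had 65.0, 0.253, 43.0, 68.1 and 65.8 FPKM in libraries HP1 to HP5, against 86.3, 67.3, 81.6, 49.95 and 54.7 FPKM in HG1 to HG5. HP2 was far below the other 9 libraries of these diets, and the fold change of -1.28 ± 1.05 (SE) was -0.16 without it. JUN was also low in CON2 and CON3, at 0.186 and 2.75 FPKM. Whether such low values are failed estimates was not tested. In growth factor and ERK signalling, 26 of 49 members had fold changes above 0 and the median was 0.02. FGFR2, a fibroblast growth factor receptor, was its 1 member at an unadjusted p under 0.05, at 12.03 ± 2.80 FPKM in HP and 16.2 ± 2.68 FPKM in HG. MAP2K1, the kinase that activates ERK, had 70.4, 66.8, 83.9, 85.7 and 72.8 FPKM in libraries HP1 to HP5, against 53.4, 68.3, 27.2, 70.9 and 72.3 FPKM in HG1 to HG5. HG3 was the lowest and 2 HP libraries the highest of the 10, and CON averaged 23.0 ± 5.12 FPKM.

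Genes of proliferation mostly had positive fold changes, with 0 members at an unadjusted p under 0.05. In the cell cycle list 36 of 45 members had fold changes above 0, the median was 0.17, and it stayed positive in all 22 alternatives, down to 0.04 without HP1, HP5, HG2 and HG3. TOP2A, the topoisomerase of dividing cells, had 6.29, 7.54, 13.2, 7.76 and 8.12 FPKM in libraries HP1 to HP5, against 6.44, 5.75, 4.22, 6.57 and 8.45 FPKM in HG1 to HG5. KIF23, a kinesin of cytokinesis, averaged 3.05 ± 0.667 FPKM in HP and 2.27 ± 0.511 FPKM in HG. HP3 had the highest list score, 0.49, HG5 had 0.29 and HG3 the lowest, -0.46, so the highest and the lowest library differed in diet, while HP3 and HG5 were both high.

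Stress, redox and detoxification genes gave single members only. Among 39 chaperones and genes of the unfolded protein response, 3 were higher and 2 lower with an unadjusted p under 0.05. The shares over all genes were 1.56% and 1.43%, and the list median was 0.06. HSPB8, a small heat shock protein, had 33.3, 16.1, 30.1, 29.7 and 25.5 FPKM in libraries HP1 to HP5, against 35.6, 42.1, 45.3, 34.1 and 36.8 FPKM in HG1 to HG5. The groups did not overlap, with a fold change of -0.54 ± 0.18 (SE). CHAC1, an enzyme that breaks down glutathione and is induced in the unfolded protein response, had 0.355, 1.28, 0.567, 0.479 and 0.185 FPKM in libraries HP1 to HP5, against 0.219, 6.66, 7.28, 5.92 and 1.88 FPKM in HG1 to HG5. HG1 was as low as the HP libraries and the other 4 HG libraries lay above them, with a fold change of -1.50 ± 0.49 (SE). On the higher side, HSPA5, the chaperone BiP of the endoplasmic reticulum, averaged 213 ± 38.4 FPKM in HP and 165 ± 15.2 FPKM in HG. DNAJA1 and DNAJB4, cochaperones of HSP70, averaged 9.80 ± 3.42 FPKM in HP and 6.30 ± 1.74 FPKM in HG, and 7.27 ± 1.56 FPKM in HP and 4.86 ± 1.18 FPKM in HG. None of 33 antioxidant and glutathione genes had an unadjusted p under 0.05. PRDX6, a peroxiredoxin, was among the most abundant genes, at 2720.5 ± 503.9 FPKM in HP and 2249 ± 396 FPKM in HG. In the list of xenobiotic, retinoid and aldehyde metabolism 2 members were lower and 0 higher at an unadjusted p under 0.05. RARB, a retinoic acid receptor, averaged 1.15 ± 0.129 FPKM in HP and 1.72 ± 0.232 FPKM in HG without overlap, and EPHX2, an epoxide hydrolase, 47.8 ± 19.3 FPKM in HP and 73.8 ± 19.6 FPKM in HG.

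Core metabolism and housekeeping lists had medians within 0.1 log2 units of 0. Glycolysis and glucose uptake had a median of 0.00 over 23 genes and oxidative phosphorylation -0.04 over 24, each with 0 members at an unadjusted p under 0.05, and the interval excluded a 2-fold difference for 22 and for 24 of them. Cytosolic ribosomal protein genes had a median of -0.09 with 13 of 49 positive, and 0.01 without HP3. RPL15, the 1 member at an unadjusted p under 0.05, averaged 692 ± 254 FPKM in HP and 436 ± 19.995 FPKM in HG, a value that can include reads of pseudogenes. In amino acid, ammonia and polyamine handling the median was -0.07 and negative in all 22 alternatives. BCKDHA, of branched-chain amino acid breakdown, averaged 59.6 ± 9.13 FPKM in HP and 76.5 ± 8.69 FPKM in HG, with an unadjusted p under 0.05. Histone deacetylases and acetyltransferases, among them the enzymes that butyrate inhibits, had a median of -0.01 and 0 members at an unadjusted p under 0.05, with HDAC4 at 4.72 ± 1.57 FPKM in HP and 6.20 ± 0.741 FPKM in HG. Circadian clock genes had 6 of 21 positive and a median of -0.06, and collagen and matrix genes 11 of 28 and -0.05. COL4A2, a chain of basement membrane collagen, averaged 47.1 ± 19.3 FPKM in HP and 76.7 ± 37.8 FPKM in HG. In the libraries with a high smooth muscle marker sum it had 139 FPKM in HG2, 77.2 in HG3 and 27.3 in HP5.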

How the data were processed

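Total RNA of ruminal epithelium was sequenced in 15 libraries, and the authors deposited 1 table of FPKM per library, with 19304 genes each, per the file headers. The submitters' processing notes name HISAT2 and StringTie 1.3.4d. For HISAT2 the version is not given in the sources used here, nor are genome build and annotation. Since FPKM carries no depth, no count test was run, and strongly expressed genes can push the other values of their library up or down. Groups came from the labels, and HP1 to HP5 were compared with HG1 to HG5. A gene was kept when 5 or more of these 10 libraries reached 1 FPKM, which left 12720 genes, 11024 with a symbol. The difference of log2(FPKM + 1), HP minus HG, was tested two-sided with limma 3.58.1 (empirical Bayes, trended and robust with statmod 1.5.0, R 4.3.3), with Benjamini-Hochberg adjustment over all 12720 genes and a threshold of 0.05. Fold changes are on the log2(FPKM + 1) scale, which understates those of low genes. Some genes are not reported here. The fit was tested on simulated data, drawn gene by gene with the same spread in every library. That test therefore does not cover an outlying library such as HP1 or the uneven smooth muscle markers.

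Named genes were, per direction, the 10 with the smallest p and the 5 with the largest fold change and an unadjusted p under 0.05, all with a symbol and 5 FPKM or more on average in the higher diet, plus the 2 members of smallest p from each function list. Others named, among them BACE1, ISG15, KRT13, JUN and SC5D, were chosen after their values were seen. The 30 function and 13 marker lists and the libraries compared were chosen with earlier results of these data known. Of 1159 list entries 1008 were found and 899 passed the filter. Lists are described by counts and medians beside those of all genes, with no list test. Symbols were those of the tables, and 320 of 1933 gene numbers were named through RefSeq (ARS-UI_Ramb_v3.0, names only); 4157 genes had no name. Alternatives changed the pseudocount, filter, scaling, weights, variance model, libraries in the fit, replicate block and muscle covariate, and left out each library. Fits without HP5, HG2 and HG3, and without these and HP1, were added after seeing the data.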

Additional observations from a re-analysis of the deposited data

Results flagged for a closer look

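Of 214 groups of 5 values examined, 18 had a highest or lowest library far from the other 4, with a gap over 0.71 of the group's range. For normally distributed values, chance alone gives about 1 in 20 groups. The gaps were taken on FPKM without logarithm, which is skewed, and many of these genes were chosen by their values. That rate therefore may not hold here. HP2 was the high library of its group for CA3 at 23.3 FPKM, ITPRIP at 8.75 FPKM and SPINK5 at 255.6 FPKM. HP3 was high for KIF23 at 4.22 FPKM, TOP2A at 13.2 FPKM and PGLYRP2 at 15.01 FPKM. In HP4 the unnamed transcript described above was high at 4.11 FPKM. HP5 was high for HADH at 519.5 FPKM, EZR at 29.6 FPKM, DES at 1019 FPKM and the summed smooth muscle markers at 4008 FPKM. HG2 was low for PDXK at 3.68 FPKM and high for CRISP3 at 122 FPKM, LOC101117703 at 73.1 FPKM, SLC26A3 at 87.2 FPKM, TRPV3 at 9.39 FPKM and the summed skeletal muscle markers at 65.5 FPKM. In HG5 HMGCS1 was high at 103.2 FPKM.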

How the results depend on the processing

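The count of genes at an adjusted p under 0.05 stayed at 0 in every alternative except 2, with a range of 0 to 1 when single libraries were left out: 1 gene without HP4 and 1, TDP2, without HG3. At an unadjusted p under 0.05, leaving out single libraries gave 305 to 1089 genes in all (145 to 615 higher in HP and 134 to 474 lower), the upper end without HP1. Array quality weights gave 641 (349 higher and 292 lower), no filter 567 (315 of them higher), the filter at 5 FPKM, which tests fewer genes, 237 (114 and 123), and leaving out HP1, HP5, HG2 and HG3 832 (451 and 381). Apart from the changed number of genes under the filters, the cause was not tested. Median-ratio scaling moved the share of higher genes among those at an unadjusted p under 0.05 to 41.7%, from 52.1%. The number of genes whose interval excluded a 2-fold difference was 18017 with no filter and 7332 with the filter at 5 FPKM, which change the genes tested, and 10860 with a pseudocount of 0.1 on the same 12720 genes, against 11775. Of the 380 genes, 96 kept an unadjusted p under 0.05 in every alternative other than the filter at 5 FPKM and the 2 fits added after seeing the data, 49 higher and 47 lower in HP. Leaving out single libraries kept 216 to 272 of the 380. Without HP5, HG2 and HG3 134 were kept, and without HP1 as well 160. The labels do not say whether the replicate numbers pair the libraries. Deviations of same-numbered HP and HG libraries correlated at -0.15, -0.08, -0.07, 0.18 and -0.11. Such values show no strong pairing but cannot exclude a shared batch. With the number as a replicate block in limma, 363 genes (167 higher and 196 lower) had an unadjusted p under 0.05 and 0 an adjusted one, with a smallest adjusted p of 0.999. The fold change of SLC16A1, 0.06, ranged from -0.063 to 0.21 when single libraries were left out, and was -0.19 without HP5, HG2 and HG3 and -0.040 without HP1 as well. That of S100A8, 0.04, ranged from -0.25 to 0.37 when single libraries were left out and was -0.15 with the muscle covariate. That of FABP4 was -0.66 without HP1, HP5, HG2 and HG3, against 0.64, and that of COL6A1, a collagen chain, 0.017 without HP5, HG2 and HG3, against -0.25. The number of libraries and the spread in HP1 limit the precision, and depth is unknown.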

Other observations

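Some other genes with small differences also had non-overlapping groups, and were picked after their values were seen; their limma adjusted p was 0.999. SPINT2, an inhibitor of membrane-bound serine proteases of epithelia, averaged 300.0 ± 25.0 FPKM in HP and 379 ± 58.8 FPKM in HG (SD, n = 5 each), a fold change of -0.33 ± 0.13 (SE). SQSTM1, the autophagy receptor p62, averaged 85.4 ± 5.01 FPKM in HP and 104 ± 9.90 FPKM in HG. ALAS1, the first enzyme of heme synthesis, averaged 65.7 ± 2.78 FPKM in HP and 79.2 ± 5.42 FPKM in HG, and P2RX4, an ion channel opened by ATP, 30.3 ± 2.01 FPKM in HP and 39.5 ± 5.77 FPKM in HG. XRN1, the main cytoplasmic exonuclease that degrades decapped messenger RNA, stood on the other side at 4.46 ± 0.240 FPKM in HP and 3.24 ± 0.322 FPKM in HG. Each of these differences lay under 0.5 on the log2 scale.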
